A study of Macaca mulatta with 30 samples.

Results

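The genes described here encode secreted ligands, Frizzled receptors and antagonists of the BMP, TGF-beta and WNT pathways. They were picked by symbol (the BMP, GDF, TGFB, INHA and INHB, NODAL, FST and FSTL, CHRD, GREM, DKK, SFRP, WIF1, WNT and FZD genes). This set was chosen with earlier results of these data known. Of the 14133 genes with a probe set of a single symbol, 66 belonged to it. These 66 genes had 117 such probe sets, and each gene was represented by the one with the highest mean over the 30 arrays. NOG and the LEFTY genes were looked for by the same rule and are not analysed here.

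Ligands of the TGF-beta superfamily, which include the TGF-betas, activins, BMPs and growth differentiation factors (GDFs), bind pairs of serine/threonine kinase receptors that phosphorylate SMAD proteins. Secreted proteins such as follistatin, gremlin and chordin hold some of these ligands away from their receptors. WNT ligands bind Frizzled receptors, in the best known branch together with LRP co-receptors, and stabilize beta-catenin. SFRP proteins and WIF1 bind WNT ligands, and DKK1 blocks the LRP co-receptors.

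Rhesus macaque RNA came from cerebral cortex, pancreas, testis and thymus and from a line of immortalized fibroblasts. Each of the 5 was 1 RNA sample, sent as 2 aliquots to each of 3 centers (Oregon, Nebraska and Yerkes), which labeled and hybridized them to the rhesus GeneChip without any treatment. The cortex RNA was prepared at Yerkes, the fibroblast RNA at Nebraska and the other RNAs at Oregon. There were thus 6 arrays per tissue (fibroblasts are counted as a tissue below) and 10 per center, and all values are log2 signals. The sources used here do not give the age or sex of the animals or the way the line was immortalized. A purpose of the study, among others, was to learn whether centers obtain the same values.

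The values were fitted in limma over all probe sets with tissue and center as terms, and a gene counted as called in the tissue where it was above all other 4 at an adjusted p under 0.05. The main counts also asked for a difference of at least 1 from the next tissue. Since each tissue was 1 RNA, the p-values cover only the spread of labeling and hybridization. Only values of the same probe set are compared with each other, and the median of an array is used as a reference for weak signal. In bulk RNA, fewer cells of a type and less RNA per cell cannot be told apart.

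Each tissue held markers of its own cells. By at least 1, each of 5 neuron, 3 glia, 7 acinar, 2 islet and 4 testis somatic markers was higher in its own tissue. The count was 6 of 9 for fibroblast matrix genes in fibroblast, 3 of 4 for thymocytes and 2 of 5 for thymic epithelium in thymus, 2 of 5 for germ cells in testis and 1 of 4 for pancreatic ducts in pancreas, while KRT7, another duct marker, was higher in thymus. Of endothelial markers 1 of 5 was higher in thymus, and of smooth muscle markers 1 of 2 in testis. Array means were 6.32 to 6.33 at Oregon, 6.35 to 6.39 at Nebraska and 6.90 to 6.93 at Yerkes. At each center both pancreas arrays had a higher median than the other 8.

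Most of these genes that stood out in 1 tissue did so in fibroblasts. With the minimum difference of 1, 18 of the 66 genes (27.3%) were higher in 1 tissue, against 17.5% of all 14133 genes. In fibroblast there were 10 (15.2%, against 4.63% of all genes), in cerebral cortex 5 (7.58%, against 5.63%), in testis 2 (3.03%, against 1.97%) and in pancreas 1 (1.52%, against 1.98%). Thymus had 0, against 3.33% of all genes, while 1 of the 66 was higher there with no minimum difference. The 10 of fibroblast were 4 antagonists (DKK1, FST, SFRP1 and GREM1), 4 ligands (WNT5A, WNT4, GDF15 and TGFB3), the Frizzled receptor FZD6 and FSTL1. Those of cerebral cortex were GDF6, WNT10B, FZD3, WIF1 and FSTL5.

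**Figure D1:**
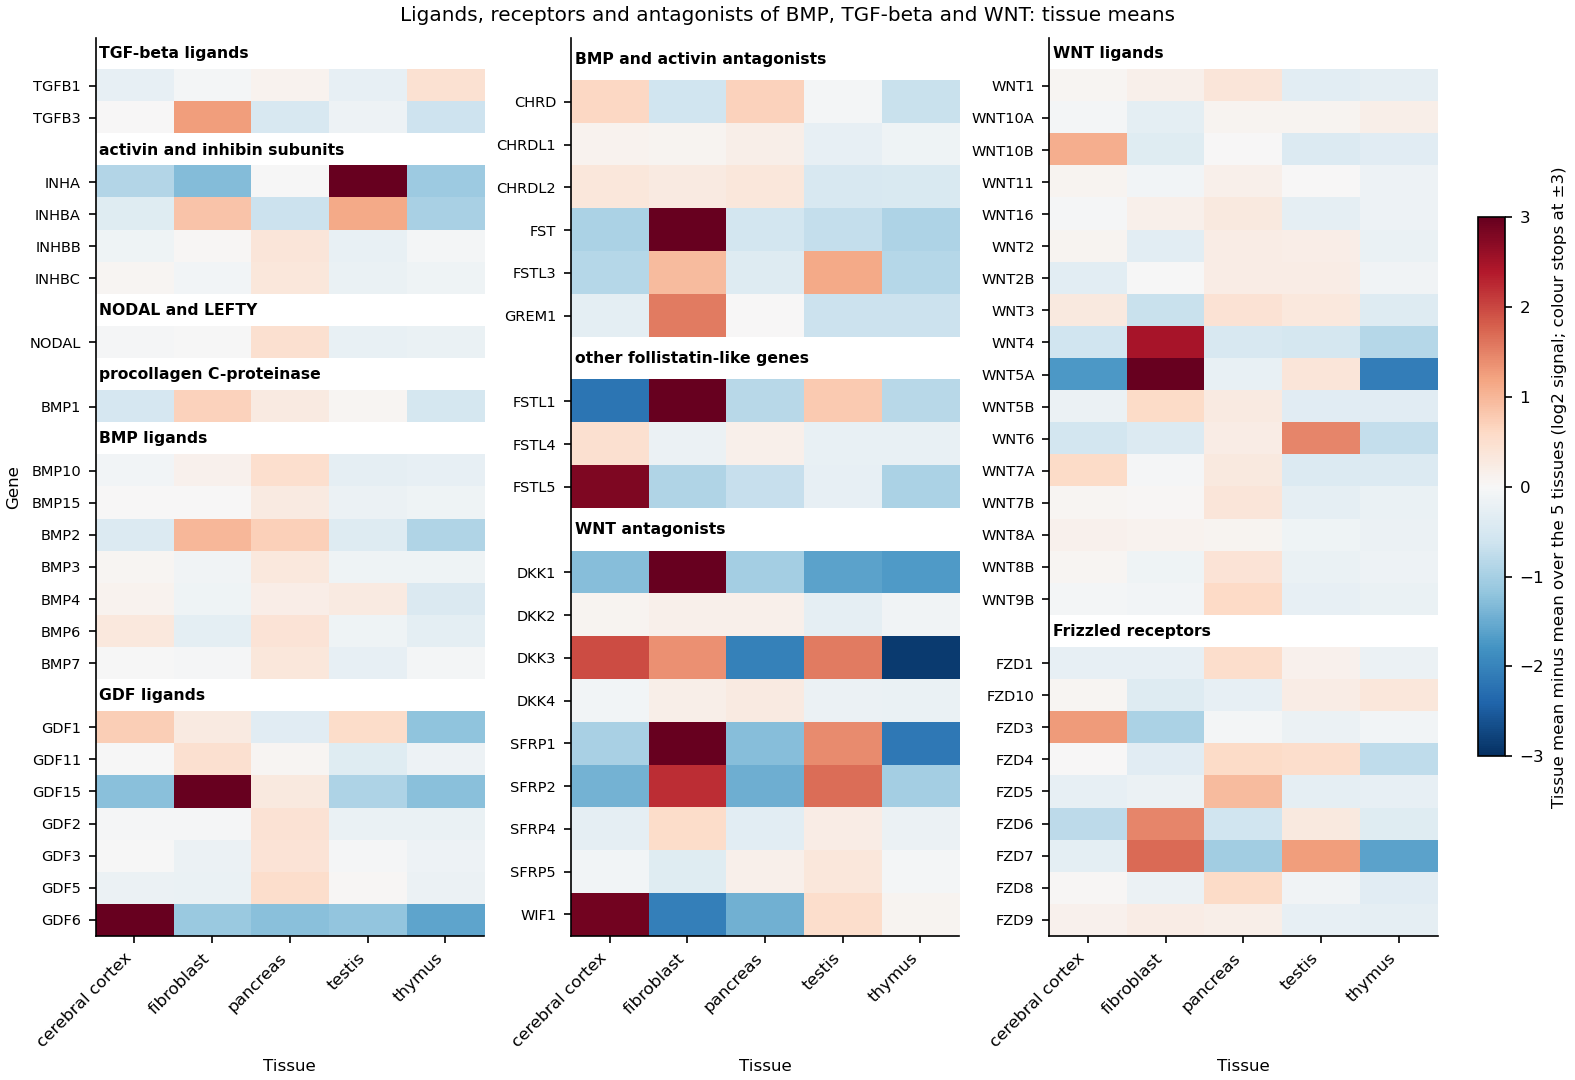
Mean of the 6 arrays of each tissue minus the mean over the 5 tissues (log2, colour scale that stops at ±3) for each of the 66 genes, by role (rows) and tissue (columns). Dark red cells stand mostly in the fibroblast column (DKK1, FST, WNT5A, GDF15, FSTL1 and SFRP1), with GDF6, WIF1 and FSTL5 in cerebral cortex and INHA in testis.

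With no minimum difference, 46 of the 66 genes (69.7%) were higher in 1 tissue than in each other one, against 73.4% of all genes, and 28 of these by under 1. The counts were 17 in fibroblast (25.8%, against 16.7%), 17 in pancreas (25.8%, against 21.2%), 8 in cerebral cortex (12.1%, against 13.3%), 3 in testis (4.55%, against 9.71%) and 1 in thymus (1.52%, against 12.6%). With no center term the counts were 11 in fibroblast (16.7%, against 10.8% of all genes), 3 in pancreas (4.55%, against 7.67%), 6 in cerebral cortex (9.09%, against 9.55%) and 2 in testis (3.03%, against 5.48%), and TGFB1, the gene of thymus, was lost. Over all 66 genes, the median range of the tissue means was 0.85, while it was 1.20 over all genes. On all 30 arrays, 7 of the genes (10.6%) were under the median of the array, near the 10.2% of all genes, and 15 (22.7%) were above it, where 47.5% of all genes were. The 7 were the ligands BMP3, BMP15, WNT2 and WNT8A, the antagonists CHRDL1 and DKK2 and the receptor FZD10, and they are named here after their values were seen.

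Of all genes, 73.4% were called with no minimum difference and 17.5% by at least 1, and the counts of each role group below stand beside these shares. Of the TGF-beta ligands, 2 of 3 were measured and both were higher in 1 tissue. TGFB3, an isoform made by mesenchymal cells, had a lowest, median and highest value of 7.51, 8.08 and 8.52 on the fibroblast arrays and of 6.24, 6.95 and 7.19 on those of cerebral cortex, the next tissue. The groups did not overlap, and the difference was 1.24 (SE 0.08, adjusted p = 7.59e-15 from limma). The other TGFB3 probe set was highest in pancreas by 0.37 (SE 0.11), and the mean of both probe sets gave 0.65 for fibroblast. TGFB1, the main isoform of immune cells, was called in thymus, narrowly and not in every setting. There it had a lowest, median and highest value of 6.42, 6.67 and 7.63, with 6.15, 6.48 and 7.06 in pancreas, so the groups overlapped around a difference of 0.33 (SE 0.11, adjusted p = 0.00863 from limma). At Oregon the mean was 6.43 in thymus and 6.48 in pancreas, and TGFB1 was not called in thymus without the Yerkes arrays, with no center term or with the mean of both probe sets. The other TGFB1 probe set had its highest mean in pancreas, 0.45 above thymus, and 0.18 (SE 0.09, adjusted p = 0.0542) above fibroblast, the next tissue.

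All 4 activin and inhibin subunits that were measured, of 5 listed, were called with no minimum difference, as were 73.4% of all genes. INHA is the alpha subunit that makes inhibin, a Sertoli cell hormone that restrains FSH. On the testis arrays INHA had a lowest, median and highest value of 10.84, 11.05 and 11.74, and on the pancreas arrays 7.51, 7.65 and 8.39. Every testis array lay above every other array, by a mean difference of 3.29 (SE 0.12, adjusted p = 9.94e-22 from limma). The beta A subunit INHBA, which forms activin A and pairs with INHA in inhibin A, was at 8.13 ± 0.35 (SD, n = 6 arrays) in testis and 7.83 ± 0.38 in fibroblast and at most 6.61 elsewhere. INHBA was called in testis by 0.30 (SE 0.10), and its other probe set was highest there too, by 0.72 (SE 0.12). INHBB and INHBC, further beta subunits, were called in pancreas by 0.34 and 0.28. The other INHBB probe set was highest in testis by 0.28 (SE 0.12, adjusted p = 0.0342 from limma).

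BMP ligands, which pattern bone, gut and nervous system, were weakly marked. Of 9 listed, 7 were measured and 5 were called, none by 1. BMP2 was at 7.66 ± 0.25 (SD, n = 6 arrays) in fibroblast, 7.36 ± 0.40 in pancreas and 5.75 to 6.27 in the other tissues, and its difference from pancreas was 0.30 (SE 0.09). BMP7 was highest in pancreas by 0.35 (SE 0.07), and of its 4 other probe sets 2 were highest in pancreas too, by 0.36 and 0.06, and 2 in cerebral cortex, by 0.70 (SE 0.07) and 0.28 (SE 0.07). BMP4 and BMP6 were not called, with differences of 0.05 and 0.08 from the next tissue. BMP1, which shares the name but is the procollagen C-proteinase and no ligand, was at 8.20 ± 0.42 in fibroblast, 0.44 (SE 0.08) above pancreas, and its other probe sets were highest in fibroblast too, by 0.48 and 1.75. NODAL, the embryonic left-right and mesoderm signal, was called in pancreas by 0.50 (SE 0.07).

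Of 16 GDF ligands listed, 7 were measured, 6 were called and 2 by at least 1. GDF6, a BMP-like ligand of skeletal and eye development, was at 11.01, 11.17 and 11.63 (lowest, median and highest) in cerebral cortex and at 4.52, 4.96 and 5.48 in fibroblast, the next tissue. On all 24 arrays outside cortex it stayed under the array median, and the difference was 6.26 (SE 0.12, adjusted p = 1.2e-28 from limma). The other GDF6 probe set was at 4.39 in cerebral cortex and highest in fibroblast, at 6.11, by 1.05 (SE 0.08), so the cortex signal rests on 1 of 2 probe sets, and the mean of both gave 2.27.

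GDF15, a stress-induced ligand that acts through the receptor GFRAL, was at 10.99, 11.52 and 11.93 in fibroblast and at 8.43, 8.47 and 9.03 in pancreas. It was above the array median on all 30 arrays, and fibroblast lay 2.87 higher than pancreas (SE 0.09, adjusted p = 6.07e-24 from limma). Its other probe set gave 2.64 (SE 0.10) for the same pair. GDF1, a partner of NODAL in left-right patterning, was not called, with tissue means of 8.52 in cerebral cortex, 8.33 in testis, 8.07 in fibroblast, 7.44 in pancreas and 6.58 in thymus. GDF11, a relative of myostatin, was called in fibroblast by 0.41 (SE 0.06), and GDF2, GDF3 and GDF5 in pancreas by 0.47, 0.42 and 0.49.

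Antagonists of BMP and activin were divided. Of 8 listed, 6 were measured and 2 were called, both in fibroblast and both by at least 1. FST, follistatin, binds activins almost irreversibly. Its lowest, median and highest values were 10.08, 10.42 and 10.86 in fibroblast and 6.46, 6.61 and 7.44 in pancreas, and its means in cerebral cortex, testis and thymus were 6.41, 6.65 and 6.42. No fibroblast array overlapped with another, and the difference was 3.66 (SE 0.07, adjusted p = 3.23e-29 from limma). Both further FST probe sets were highest in fibroblast as well, by 2.42 and 4.69. GREM1, gremlin, which sequesters BMP2 and BMP4, was at 7.15, 7.89 and 9.04 in fibroblast and at 6.10, 6.36 and 6.88 in pancreas. These groups did not overlap, and the difference of 1.54 (SE 0.21, adjusted p = 1.42e-07) varied more between centers than that of any other of the 18 genes. The other GREM1 probe set was highest in pancreas by 0.48 (SE 0.08), and the mean of both gave 0.53 for fibroblast. FSTL3, a follistatin relative that also binds activins, was at 9.61 ± 0.32 (SD, n = 6 arrays) in testis and 9.43 ± 0.33 in fibroblast, and these did not differ beyond their spread (difference 0.18, SE 0.09, adjusted p = 0.0848). The chordin genes CHRD, CHRDL1 and CHRDL2, whose products bind BMPs, were not called, while the other CHRD probe set was highest in pancreas by 0.42 (SE 0.07).

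The follistatin-like genes FSTL1, FSTL4 and FSTL5 carry a follistatin domain but are not established antagonists of activin. FSTL1, a secreted glycoprotein of mesenchymal cells, was at 12.90, 13.13 and 13.51 (lowest, median and highest) in fibroblast and 10.72, 10.89 and 11.12 in testis, a difference of 2.27 (SE 0.06, adjusted p = 1.28e-24 from limma). In cerebral cortex it was at 7.93 ± 0.20 (SD, n = 6 arrays), 1.36 below thymus, and it was the only gene of the 66 lower by at least 1 in a tissue than in each other one (1.52%, against 5.02% of all genes). After quantile normalization of all 30 arrays, GDF1 and the used probe set of DKK3 passed in thymus as well. A second FSTL1 probe set gave 1.95 (SE 0.16) for fibroblast over testis, while the third had its highest mean in thymus by 0.14 (adjusted p = 0.396), and the mean of all gave 1.32.

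FSTL5, a gene of the nervous system, was at 7.74, 8.06 and 8.40 in cerebral cortex and at 4.62, 4.91 and 5.44 in testis. Outside cortex it lay under the array median on all 24 arrays, and the difference was 3.04 (SE 0.10, adjusted p = 1.13e-22 from limma). FSTL4 was called in cerebral cortex too, by 0.31 (SE 0.06), and its other probe sets gave 0.29 for cerebral cortex and a highest mean in pancreas by 0.10 (adjusted p = 0.417).

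**Figure D2:**
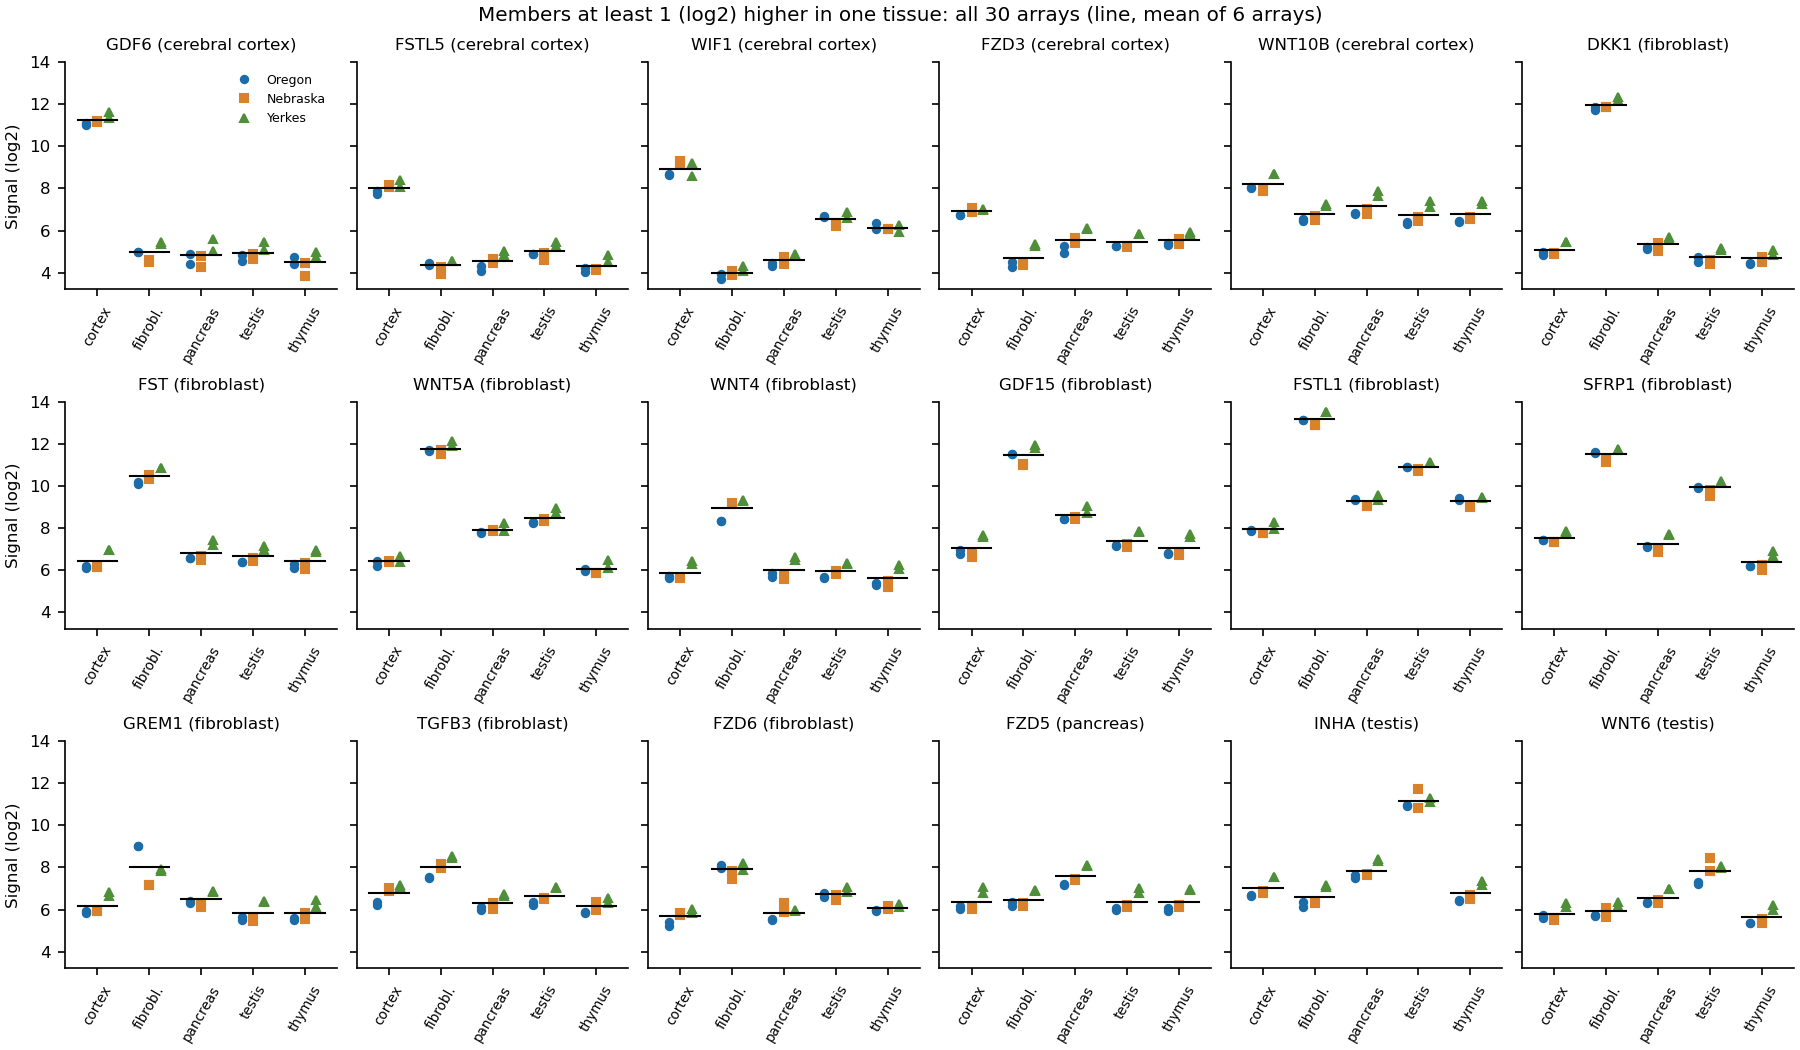
Log2 signal (y axis, same scale in each panel, not starting at 0) of the 18 genes that were higher in 1 tissue by at least 1, array by array for each tissue (x axis) with the centers as symbols and the mean of 6 arrays as a line. In each panel the 6 arrays of the named tissue lie above the other 24, by the widest gap for DKK1 and GDF6 and by the smallest for WNT10B, then FZD5, WNT6 and GREM1.

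Of 19 WNT ligands listed, 17 were measured, 10 were called and 4 by at least 1. WNT5A, the prototype of beta-catenin-independent WNT signaling, was at 11.53, 11.71 and 12.13 (lowest, median and highest) in fibroblast and 8.23, 8.37 and 8.95 in testis. Its mean was 7.90 in pancreas, 6.41 in cerebral cortex and 6.05 in thymus, and each neighbour in this order differed from the next (limma, adjusted p under 0.05). Fibroblast exceeded testis by 3.28 (SE 0.08, adjusted p = 6.75e-26 from limma), and by 3.92 and 4.02 on the other two probe sets. WNT4, which acts in kidney, ovary and muscle development, was at 8.33, 9.18 and 9.31 in fibroblast and 5.55, 5.83 and 6.60 in pancreas. In the 4 other tissues WNT4 was under the median on every array, and the difference was 2.94 (SE 0.10, adjusted p = 6.19e-22).

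WNT6, a ligand made by epithelia, was at 7.21, 7.92 and 8.46 in testis and at 6.29, 6.43 and 6.99 in pancreas, a difference of 1.24 (SE 0.12, adjusted p = 4.72e-11 from limma) that fell to 0.99 without the Nebraska arrays. WNT10B, known for holding back fat cell formation, was at 7.86, 8.04 and 8.70 in cerebral cortex and 6.77, 6.91 and 7.86 in pancreas. The lowest cortex array thus stood barely above the highest pancreas array, and the difference of 1.06 (SE 0.07, adjusted p = 7.73e-15) came to 0.96 after quantile normalization of all 30 arrays and to 0.97 without the Oregon arrays. Of the 6 WNT ligands called by under 1, WNT1, WNT7B, WNT8B and WNT9B were highest in pancreas, WNT5B in fibroblast (0.29) and WNT7A in cerebral cortex (0.27, SE 0.07). The other WNT5B probe set was highest in fibroblast as well, by 0.93 (SE 0.09).

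In the RefSeq annotation of assembly T2T-MMU8v2.0, several WNT genes lie next to each other, and 3 such pairs had both genes measured. WNT10B was higher in cerebral cortex by 1.06, where WNT1, next to it, was called in pancreas by 0.20. WNT6 stood out in testis and its neighbour WNT10A was not called (0.10 higher in thymus than in testis, adjusted p = 0.167). WNT9B was called in pancreas by 0.66 and WNT3 was not called. Other WNT3 probe sets were highest in pancreas by 0.20 (SE 0.07) and in testis by 0.06 (SE 0.07).

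Of 10 Frizzled genes listed, the seven-pass receptors of WNT ligands, 9 were measured, 6 were called and 3 by at least 1, each in another tissue. FZD3, needed for axon guidance, was at 6.73, 6.95 and 7.07 (lowest, median and highest) in cerebral cortex and 4.91, 5.52 and 6.13 in pancreas, a difference of 1.34 (SE 0.10, adjusted p = 5.74e-13 from limma). Elsewhere FZD3 was under the array median on all 24 arrays. Its other probe sets gave 0.38 (SE 0.11) for cerebral cortex and a highest mean in testis by 0.13 (adjusted p = 0.298), and the mean of all 3 gave 0.57.

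FZD5, a receptor of intestinal Paneth cells, was at 7.16, 7.43 and 8.13 in pancreas and 6.15, 6.33 and 6.93 in fibroblast. It was 1.12 higher in pancreas (SE 0.06, adjusted p = 3.22e-16), 0.91 with each array centred on its median, and 2.45 (SE 0.09) on the other probe set. FZD6, named here because only 3 Frizzled genes passed, was at 7.47, 7.93 and 8.20 in fibroblast and 6.47, 6.75 and 7.08 in testis, a difference of 1.17 (SE 0.12, adjusted p = 1.73e-10). FZD1 was called in pancreas by 0.41 (SE 0.09), while its other 3 probe sets were all highest in testis, by 0.04 to 0.41. FZD7, a receptor of stem cells, was called in fibroblast by 0.43 (SE 0.06), and FZD8 in pancreas by 0.53 (SE 0.09). FZD4, FZD9 and FZD10 were not called, while the other FZD4 probe set was highest in pancreas by 0.18 (SE 0.06).

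All 9 WNT antagonists listed were measured, 6 were called and 3 by at least 1. DKK1, the inhibitor of the LRP co-receptors, was at 11.73, 11.87 and 12.35 (lowest, median and highest) in fibroblast and 5.05, 5.31 and 5.71 in pancreas. Outside fibroblast it was under the array median on all 24 arrays. The difference, 6.62 (SE 0.07, adjusted p = 5.44e-36 from limma), was the largest of the 66 genes and hardly differed between centers, at 6.61 to 6.65. DKK2 and DKK4, of the same family, were not called, with tissue means of 5.36 to 5.76 and 6.26 to 6.72. The other DKK2 probe set was highest in cerebral cortex by 0.43 (SE 0.13).

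SFRP1, a secreted protein with a Frizzled-like domain, was at 11.16, 11.60 and 11.77 in fibroblast and 9.54, 9.93 and 10.23 in testis, a difference of 1.58 (SE 0.07, adjusted p = 2.79e-19). Its mean in cerebral cortex, pancreas and thymus was 7.54, 7.24 and 6.37, and both other probe sets were highest in fibroblast, by 1.68 and 2.31. SFRP2 and SFRP4, of the same kind, were called in fibroblast by 0.53 (SE 0.08) and 0.34 (SE 0.06), again with testis next. Other SFRP4 probe sets were highest in fibroblast by 0.64 (SE 0.10) and 0.42 (SE 0.11), and a further SFRP4 probe set was highest in thymus by 0.26 (SE 0.09). SFRP5 was not called (0.18 higher in testis than in pancreas, adjusted p = 0.0521).

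WIF1, which binds WNT ligands through a domain of its own, was at 8.61, 8.95 and 9.30 in cerebral cortex, 6.20, 6.62 and 6.88 in testis, 5.95, 6.09 and 6.34 in thymus, 4.29, 4.60 and 4.87 in pancreas and between 3.69 and 4.30 in fibroblast. It was thus lowest in fibroblast, the tissue in which DKK1 and SFRP1 were highest. Cerebral cortex exceeded testis by 2.38 (SE 0.12, adjusted p = 1.75e-17 from limma).

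DKK3, a member of the DKK family that does not bind the LRP co-receptors in the usual way, had tissue means of 11.84 in cerebral cortex, 11.43 in testis, 11.24 in fibroblast, 7.86 in pancreas and 7.01 in thymus. It was called in cerebral cortex by 0.40 (SE 0.06, adjusted p = 1.69e-06 from limma), and its arrays there, between 11.67 and 12.11, overlapped with none of the others. Of the 5 other probe sets with this symbol, 2 were highest in cerebral cortex as well, by 0.63 and 0.08. The other 3 were highest in thymus, where the used probe set was lowest, by 3.99 (SE 0.09), 3.29 (SE 0.09) and 0.25 (SE 0.10). Whether they measure the same transcript was not tested.

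Other probe sets with the symbol of a gene were available for 31 of the 66 genes. Of 51 such probe sets, 27 had the same highest tissue as the one used. Among the 18 genes with a difference of at least 1 there were 15, of which 10 had the same. The other 5 belonged to GDF6, GREM1, TGFB3, FSTL1 and FZD3. For FST, WNT5A, SFRP1, GDF15 and FZD5, every other probe set had the same highest tissue.

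**Figure D3:**
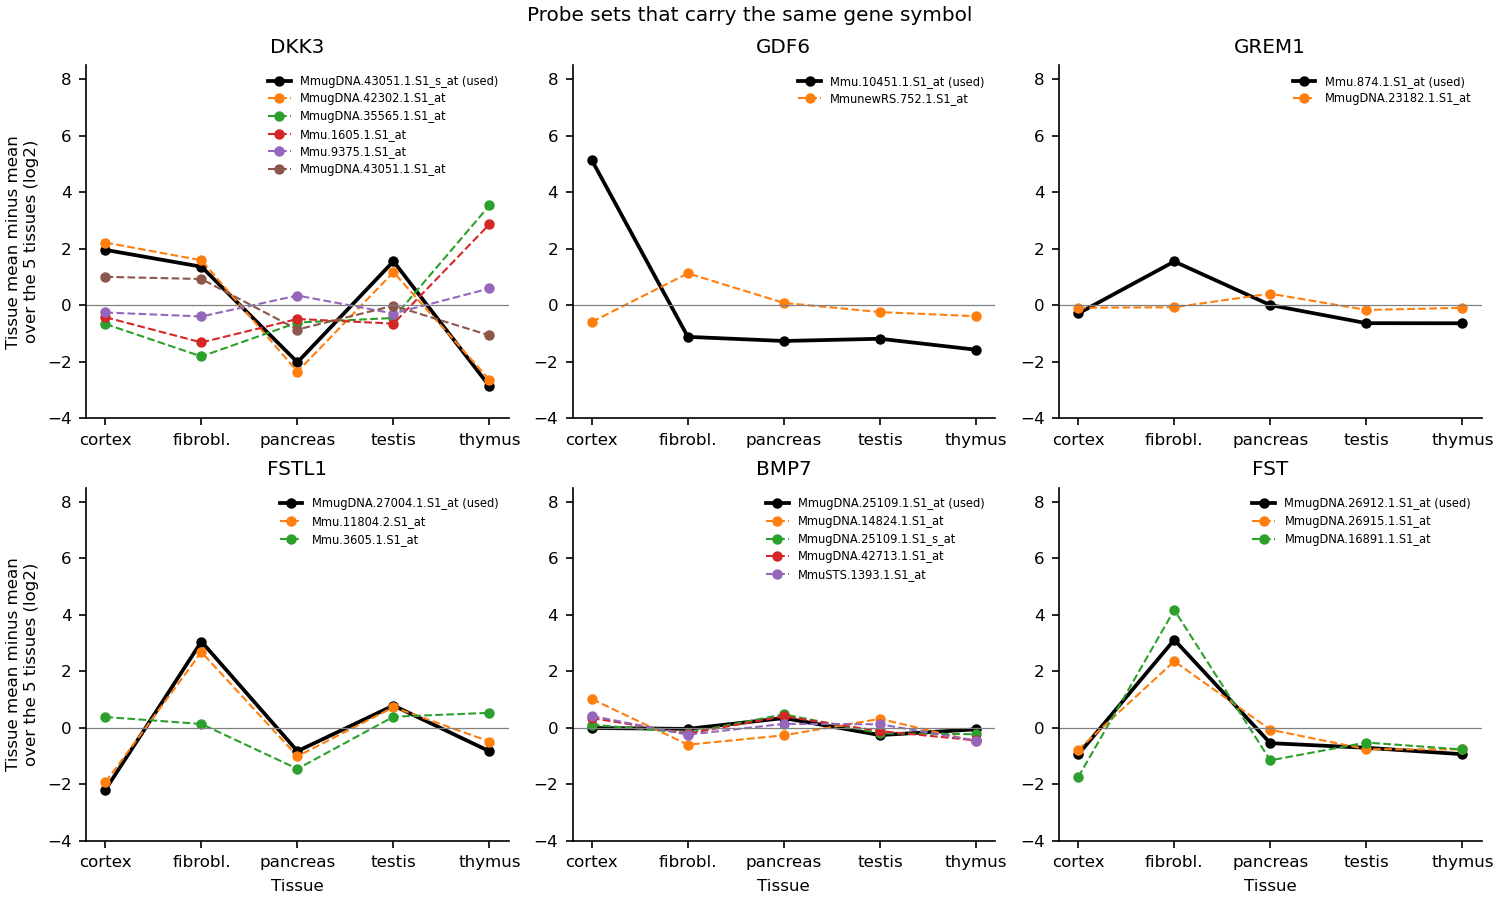
Tissue mean (6 arrays) minus the mean over the 5 tissues (y axis, log2) by tissue (x axis) for each probe set with the symbol DKK3, GDF6, GREM1, FSTL1, BMP7 or FST, with the one used in black. The lines run together for FST, and for DKK3 and GDF6 they cross, with 2 DKK3 probe sets rising in thymus by 3.99 and 3.29 over the next tissue.

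Fibroblast and testis shared high signal of several genes. With the rule that both exceed each of the other 3 tissues by at least 1, which was chosen after these values were seen, 6 of the 66 genes passed (9.09%, against 0.969% of all genes). They were SFRP1 and SFRP2, FZD7, FSTL1 and FSTL3, and INHBA. The smallest of their 6 differences each was 2.40 for SFRP1, 2.70 for SFRP2, 1.55 for FZD7, 1.62 for FSTL1, 1.35 for FSTL3 and 1.22 for INHBA. SFRP2, for example, had a lowest, median and highest value of 9.02, 9.26 and 9.49 in fibroblast and 8.52, 8.73 and 8.92 in testis, and its highest array in any other tissue was 6.30.

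Among the other 9 pairs of tissues, fibroblast and pancreas shared GDF15 and BMP2 (3.03%, against 0.46% of all genes), and the remaining 8 pairs had 0 (0.134% to 0.984% of all genes). The mean signal of 9 fibroblast matrix markers was 11.57 to 12.16 on the fibroblast arrays, 9.50 to 10.07 in testis, 8.58 to 9.13 in pancreas, 7.93 to 8.40 in thymus and 6.43 to 7.06 in cerebral cortex. The part of matrix-producing cells in the testis values was not tested.

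Most genes called in pancreas differed little from the next tissue. The 17 genes differed by 0.20 to 1.12, with a median of 0.38, and after FZD5 the largest difference was 0.66, for WNT9B, a ligand of kidney and facial development. On the pancreas arrays 10 of them were always above the array median, and for 5 of the 17 every array of the other tissues was under it. The medians of the pancreas arrays were 6.18 to 6.19 at Oregon, 6.22 at Nebraska and 6.81 at Yerkes, and those of the other tissues at most 6.05, 6.08 and 6.76. With each array centred on its median, which moved the median difference of pancreas from the other tissues over all genes from -0.05 to -0.21, 12 genes (18.2%, against 14.1% of all genes) were called in pancreas, all of them among the 17. After quantile normalization of all 30 arrays it was 0.05, and 14 were called (21.2%, against 22.2%), of which 12 were among the 17. The part of the higher array medians in the pancreas calls was not tested.

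Of the genes that were lower in 1 tissue, most were so in thymus. With no minimum difference, 20 of the 66 genes (30.3%, against 47.8% of all genes) were lower in 1 tissue than in each other one. There were 11 in thymus (16.7%, against 9.3% of all genes), 5 in fibroblast (7.58%, against 6.35%), 2 in cerebral cortex (3.03%, against 12.1%) and 2 in testis (3.03%, against 4.95%). In pancreas limma called 0, and 0 at an unadjusted p under 0.05, against 15.1% of all genes, and SFRP2 and SFRP4 had their lowest mean there, by 0.06 and 0.03. Among the genes with large values elsewhere, thymus means were 7.01 for DKK3, 6.37 for SFRP1, 6.05 for WNT5A and 5.79 for FZD7. For DKK3 this holds for the probe set used. Other DKK3 probe sets were highest in thymus, by 3.99, 3.29 and 0.25, or in cerebral cortex, by 0.63 and 0.08. None of the 66 genes was lower in thymus by at least 1 as deposited, and after quantile normalization of all 30 arrays DKK3 (-1.24) and GDF1 (-1.07) were.

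Of the 18 genes with a difference of at least 1, all had the same highest tissue at each of the 3 centers, and 13 differed from the next tissue by at least 1 at each. The 18 were chosen by their difference on these same arrays, which made such agreement likely beforehand. Over all 66 genes, 49 (74.2%) had the same highest tissue at all 3 centers, against 77% of all genes. In 20 of the 66 genes (30.3%, against 26.9% of all genes) the 6 arrays of 1 tissue lay above the 24 others, namely these 18, DKK3 and SFRP2. Tissue differences that depended on the center, tested as an interaction, were called in 16 of the 66 genes (24.2%, against 33.4% of all genes), and 7 of the 16 were among the 18.

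Among these 7 genes, GREM1 had the strongest interaction (adjusted p = 4.97e-08 from limma). Its fibroblast mean was 2.67 above pancreas at Oregon, 0.94 at Nebraska and 1.02 at Yerkes, and 0.98 over the other centers without the Oregon arrays. The other 9 genes with an interaction are not ranked here. WNT4 followed, with 2.58, 3.30 and 2.76 (adjusted p = 0.0015), and then FZD3, with 1.38, 1.46 and 0.91 (adjusted p = 0.00407). GDF15 had 3.08, 2.54 and 2.99 (adjusted p = 0.0102) and WNT6 0.92, 1.75 and 1.06 (adjusted p = 0.0238). The interaction test covers all tissues at once and not the difference from the next tissue alone. In these 5 genes and in FZD6 and WIF1 it was called, while the tissue with the highest signal was the same at each center.

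**Figure D4:**
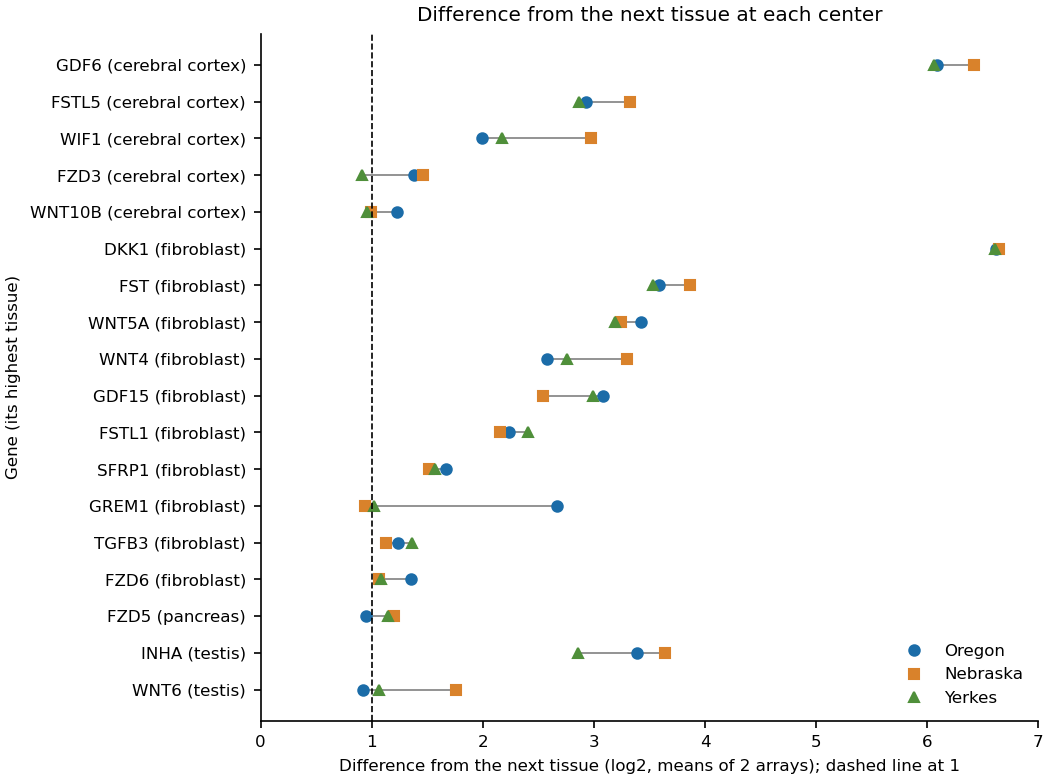
Difference of the highest tissue from the next (x axis, log2, from the means of 2 arrays) at each center (symbol) for the 18 genes (y axis), with a dashed line at 1. DKK1 is near 6.6 at all centers, GREM1 spreads from 0.94 to 2.67, and FZD3, FZD5, GREM1, WNT6 and WNT10B have a center to the left of the line.

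The other components of the pathways were grouped by their known roles, in lists chosen with earlier results of these data known. Of their 76 measured genes, 27 (35.5%, against 17.5% of all genes) were higher in 1 tissue by at least 1. Among 12 of 14 receptors, 4 passed. These were AMHR2, the receptor of anti-Müllerian hormone, in testis (1.98, SE 0.10), the activin receptors ACVR2A in fibroblast (1.96, SE 0.07) and ACVR1B in cerebral cortex (1.48, SE 0.07), and the TGF-beta receptor TGFBR1 in fibroblast (1.10, SE 0.07). Of 6 SMAD genes measured, 1 passed, the inhibitory SMAD7 in fibroblast (1.56, SE 0.09). Of 13 genes of latency proteins and further modulators 8 passed, 3 in fibroblast, 3 in testis and 2 in cerebral cortex. They were led by AMH, the Sertoli cell hormone of this superfamily, in testis (5.30, SE 0.13), the transmembrane follistatin-domain gene TMEFF1 in cerebral cortex (2.58, SE 0.13) and the pseudoreceptor BAMBI in testis (2.54, SE 0.07). Of 8 target genes of TGF-beta and BMP 4 passed, TGFBI and CCN2 in fibroblast (2.24 and 1.61), HEY1 in cerebral cortex (1.71) and ID3 in thymus (1.22).

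On the WNT side, 5 of 15 co-receptors and modulators passed. WLS, which escorts WNT ligands out of the cell, was higher in fibroblast (2.48, SE 0.07), the R-spondin RSPO2 in cerebral cortex (2.16, SE 0.08), and the co-receptor LRP6 in cerebral cortex (1.57, SE 0.10). The other two were RSPO3 in fibroblast (1.16) and the WNT5A receptor ROR1 in pancreas (1.12). Of 17 cytoplasmic and nuclear components 4 passed, TCF7 in thymus (4.43, SE 0.09), APC of the destruction complex in cerebral cortex (2.21, SE 0.09), and TCF7L2 and AXIN2 in testis (1.22 and 1.11). TCF7 is also a thymocyte marker. Of 10 WNT target genes 3 passed, TCF7 and AXIN2 again and CCND1, cyclin D1, in fibroblast (2.31, SE 0.09).

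**Figure D5:**
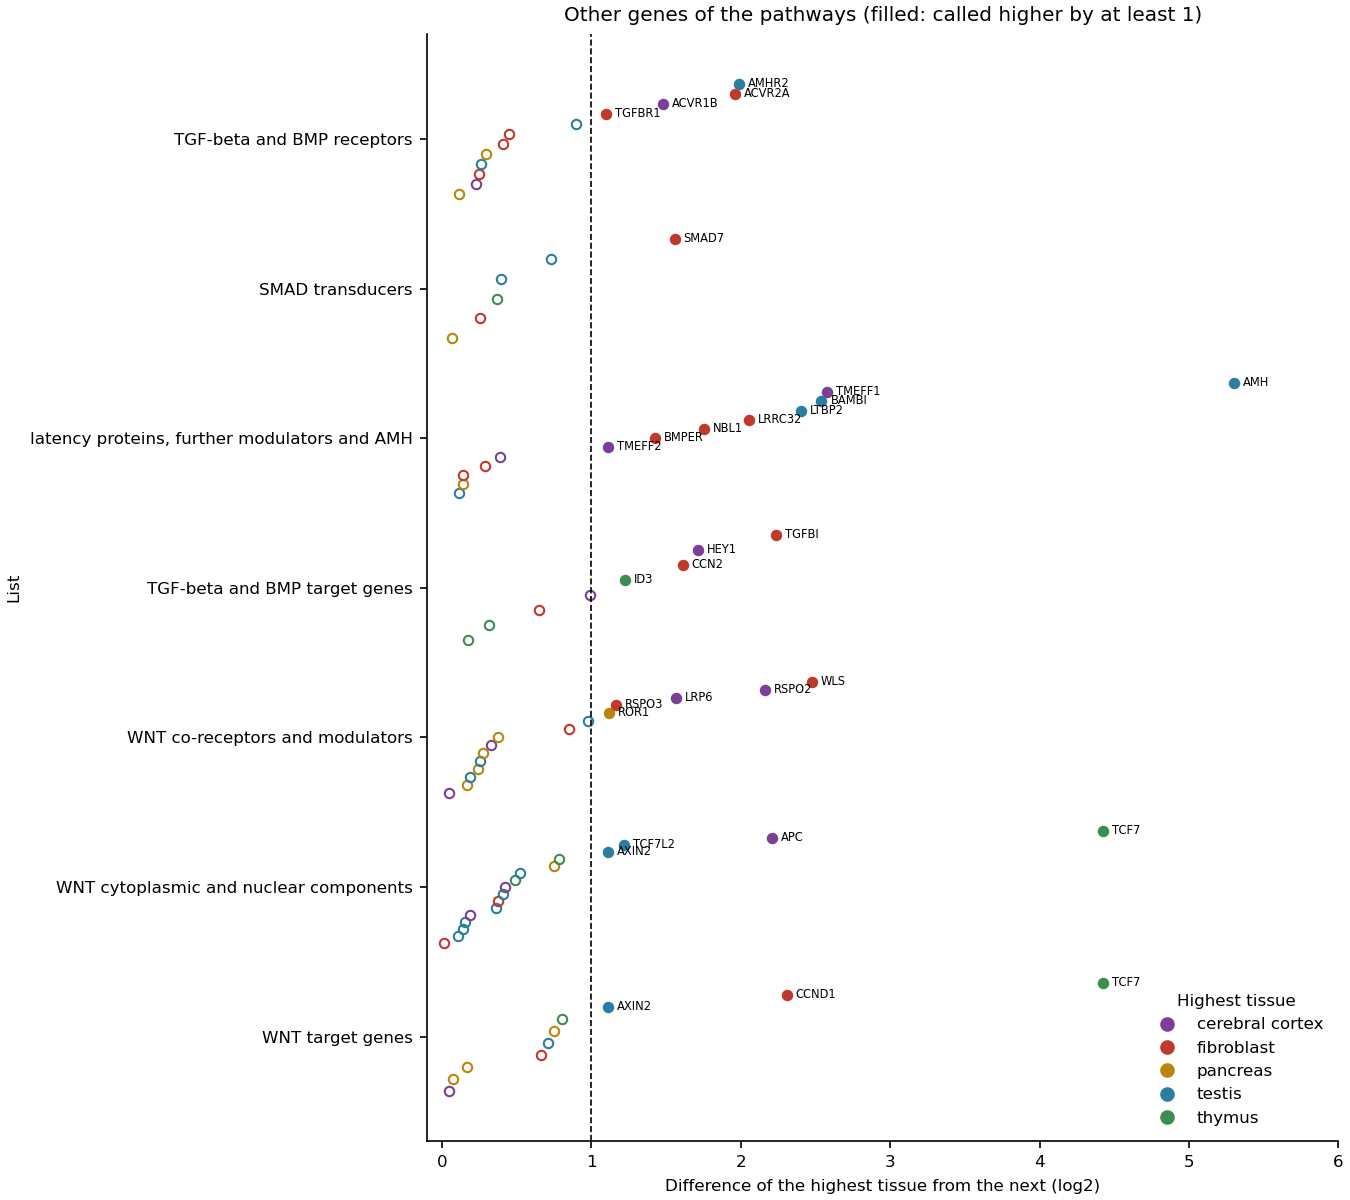
Difference of the highest tissue from the next (x axis, log2) for each measured gene of 7 lists of other pathway components (y axis), coloured by the highest tissue. Filled points with names passed limma with a difference of at least 1 (dashed line), and the largest are AMH in testis at 5.30 and TCF7 in thymus at 4.43.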

How the data were processed

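RNA from 5 sources was hybridized in 2 aliquots at each of 3 centers, on 30 rhesus GeneChips. The deposited values are on a log2 scale. Per the study's methods, the authors corrected background with MAS 5.0, quantile normalized the arrays of each center separately and summarized all 30 arrays by RMA. Arrays give no read depth, and their number limits the precision.

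The log2 values were used as deposited. Of 52865 probe sets, the platform annotation gave 1 gene symbol to 24969, several to 361 and none to 27535. Members were chosen by symbol, and 65 of the 66 had the same symbol in RefSeq. Members, lists and rules were chosen with earlier results of these data known. R 4.3.3 and limma 3.58.1 (lmFit, eBayes) fitted tissue and center over 30 arrays and all probe sets, with Benjamini-Hochberg adjustment within each of the pairwise contrasts. The interaction was an F test of tissue by center. The code was tested on simulated data.

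Named with values were, per tissue, the genes called by at least 1 (at most the 8 largest differences) and, among these, the 5 smallest interaction p-values. Named too were genes called by at least 1 whose other probe sets have another highest tissue. The rest were the gene with the highest mean in each role, genes lower by at least 1, and the top 3 of each pathway list. Alternatives covered normalization, center term, aliquots, centers, pancreas arrays, probe sets, a filter on low signal and array centring.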

Additional observations from a re-analysis of the deposited data

Results flagged for a closer look

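In 7 of the 18 genes that were higher in 1 tissue by at least 1, the tissue differences varied with the center in the limma interaction test. The difference from the next tissue varied by 1.72 between the largest and the smallest center for GREM1, by 0.98 for WIF1, by 0.834 for WNT6, by 0.726 for WNT4, by 0.552 for FZD3, by 0.538 for GDF15 and by 0.288 for FZD6. For GREM1 and GDF15 and for FZD6, the largest difference was at Oregon, and for WIF1, WNT6, WNT4 and FZD3 at Nebraska. The cause was not tested.

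Probe sets outside the comparisons carried signal in another tissue than the one used for the gene. A pair of DKK3 probe sets were higher in thymus than in the next tissue by 3.99 and 3.29, and the GDF6 probe set that was not used was higher in fibroblast by 1.05. Among the 6 arrays of the highest tissue of each of the 18 genes, no array stood apart by Dixon's test. The largest ratio was 0.588 (WNT6 in testis), under the critical value. The test used values with the center mean taken off and looks for 1 deviating array. A center whose 2 arrays deviate together can thus escape it, and the ratio was 0.0253 for GREM1 in fibroblast.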

How the results depend on the processing

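Over 11 settings, the difference of the 18 genes from their next tissue was recomputed 193 times, and it kept its direction and its call in all 193 and was at least 1 in 185. The exceptions were FZD3, FZD5, GREM1, TGFB3, WNT10B and WNT6, with lowest values of 0.57, 0.91, 0.53, 0.65, 0.96 and 0.99. Since every tissue had the same number of arrays at each center, the size could not change with no center term, averaged aliquots or the replicate block. It could not change with the filter on low signal either, so these settings tested only the call. The mean of all probe sets left the size unchanged for genes with a single probe set. The number of pathway genes higher by at least 1 stayed between 22 and 29, against 27. That of the 66 genes stayed between 14 and 18, beside 15.6% to 19% of all genes. The 14 came from the filter that kept only probe sets in the upper part of mean signal. This filter left 39 of the 66 genes, and 19% of all genes were called with it. In cerebral cortex the number was then 1, since of the 5 cortex genes the filter left WNT10B alone. In testis the number was 1, INHA, without the Nebraska arrays. In pancreas it was 0 with each array centred on its median, a setting chosen after seeing the data. With no minimum difference, the main fit called 3 genes in testis (4.55%, against 9.71% of all genes). The number in testis was 6 after quantile normalization of all 30 arrays (9.09%, against 9.31%) and 8 without the pancreas arrays (12.1%, against 12.3%). It was 6 with the mean of all probe sets (9.09%, against 9.42%) and 5 with centred arrays (7.58%, against 9.79%). With the filter on low signal, 2 of 39 genes were called in cerebral cortex (5.13%, against 14.2%) and 8 in pancreas (20.5%, against 15%). With no center term, 11 genes were called in fibroblast (16.7%, against 10.8%) and 3 in pancreas (4.55%, against 7.67%). TGFB1 was then no longer called in thymus, as without the Yerkes arrays and with the mean of all probe sets. Genes lower by at least 1 numbered 3 after quantile normalization of all 30 arrays (FSTL1 in cerebral cortex, DKK3 and GDF1 in thymus). They numbered 6 without the pancreas arrays, where only 3 other tissues had to be passed. The share of all genes lower by at least 1 was taken in the main fit alone, at 5.02%. The interaction was called in 4 genes without the Oregon arrays (7.84% of all genes), in 9 without Nebraska (17.7%) and in 12 without Yerkes (26.6%), each with 20 arrays in the fit. It was not run without a center term, with averaged aliquots or with a block. With the replicate block (center and aliquot number), 18 genes were called, as without it. Deviations of the samples with the same number had correlations from -0.304 to 0.35 over 30 pairs, and 3 exceeded 0.1. These were all at Yerkes (0.35, 0.22 and 0.163), as were the lowest values (-0.304, -0.225 and -0.198). At Oregon and Nebraska the correlations lay between -0.0591 and 0.0935. The numbers were not taken to pair the samples, and a pattern shared by samples at Yerkes was not tested.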
